A study of Homo sapiens with 8 samples.

Results

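Mitophagy, the removal of mitochondria by autophagy, and the restraint of the growth kinase complex mTORC1 were followed through 10 genes in UM-RC-2 cells, an established line of clear cell renal cell carcinoma. The genes are BNIP3, BNIP3L, FUNDC1, PINK1, SQSTM1, MAP1LC3B, BECN1, DDIT4, DEPTOR and SESN1. They were taken by symbol from RNA count tables of 43682 symbols, and all 10 were found there. Of these, 9 passed the filter on low counts and were tested, and DEPTOR was not. The libraries were 2 of cells stably expressing VHL and 2 of cells stably expressing a construct that the labels name VEC. Both groups carry the p.Arg82Pro allele of the line, and both were made by lentiviral infection and selection in 10 µg/ml blasticidin. The promoter of the constructs, and whether the cells were pools or clones, are not given in the sources used here. No library is labelled as grown in low oxygen, so the contrast is of VHL status and not of oxygen. Nothing in the labels says that replicates came from separate cultures, and p-values draw on the spread between these libraries alone. With 2 libraries per group the fits estimate that spread partly from all genes together. The p-values and standard errors are therefore not a gene's own replicate error.

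VHL is the part of a ubiquitin ligase that marks the alpha subunits of hypoxia-inducible factors (HIF) for destruction. Cells without working VHL keep HIF active in normal oxygen. BNIP3 and its relative BNIP3L (also called NIX) are HIF targets that sit in the outer mitochondrial membrane and tie the mitochondrion to the growing autophagosome, and DDIT4 (REDD1) is a HIF target that restrains mTORC1 through the TSC complex. SQSTM1, MAP1LC3B and BECN1 serve autophagy in general. The comparison addressed whether the receptors and DDIT4 moved apart from these 3 general autophagy genes when VHL was put back.

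The libraries held between 16230291 and 50027348 counts, and they separated by replicate number far more than by group. On the log2(CPM + 1) scale and over 21673 genes, Pearson's r reached 0.991 and 0.978 between VEC and VHL of one number, and 0.504 and 0.534 between replicates of one group. This r is across genes, which are not independent replicates. Pseudogene symbols made up 1.33% (VEC) and 2.04% (VHL) of replicate 1, but 31.2% and 24.9% of replicate 2. VHL was therefore set against VEC within each replicate number (pair 1 and pair 2), and the test had the replicate number as a block (the blocked fit). CPM are counts scaled to the size of each library after TMM. VHL itself was at 37.1 (VEC) and 146 CPM (VHL) in pair 1 and at 88.9 and 151 CPM in pair 2, higher in the VHL library of both pairs. The renal epithelial markers PAX8, KRT8, KRT18 and CDH6 had at least 533 counts in every library, PAX2 had 22 to 423, and CD3E, PECAM1 and VWF, markers of T cells and endothelium, had 0 in all of them. The leukocyte marker PTPRC was at 0 in replicate 1 of each group, with 72 counts for VEC and 63 for VHL in replicate 2. CD68, a macrophage marker that other cells with lysosomes also express, had 217 to 1925.

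BNIP3, BNIP3L and DDIT4 were lower in VHL than in VEC cells in both pairs, by 1.94 to 4.63 times, while SQSTM1, MAP1LC3B and BECN1 had log2 changes (VHL minus VEC) between -0.17 and 0.26. FUNDC1 lay near the general autophagy genes. PINK1 was lower in the VHL library of both pairs and SESN1 was lower in pair 1 only, and neither was called. In the blocked fit 3 of the 9 tested genes were called (p under 0.05 in edgeR's quasi-likelihood test after adjustment over all genes by Benjamini-Hochberg), all of them lower in VHL. Across all 24417 tested genes 3.10% were called, 2.35% as lower and 0.749% as higher. The 10 genes were chosen with results of these data known, so this count is not independent evidence. With group as the only term edgeR called 0 of the 9 genes and 0% of all genes. The same 3 genes were called with the block in DESeq2, which gave 8 of the 10 an adjusted p (not PINK1 or DEPTOR) and called 8.59% of the 14002 genes that got one. They were also called when the 13692 protein-coding genes alone were fitted (7.10% called). In the group-only fit 1 of the 9, BNIP3, had an unadjusted p under 0.05, against 22 of all 24417 tested genes.

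**Figure D1:**
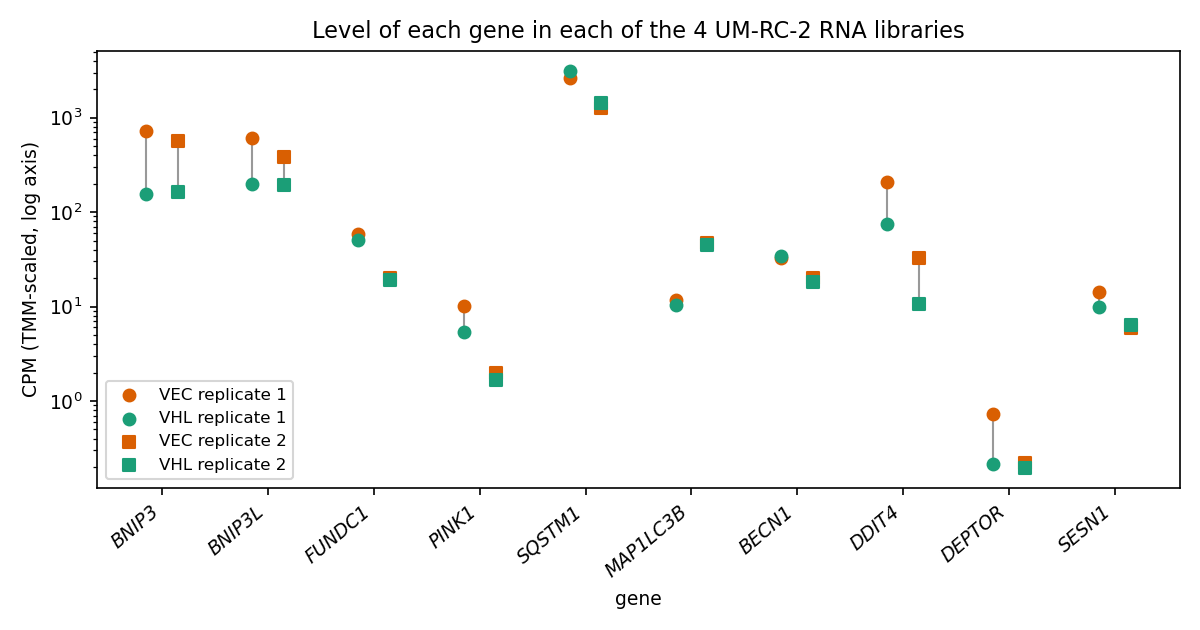
Level of each of the 10 genes in CPM (log axis) in the 4 libraries, with orange for VEC, green for VHL, circles for replicate 1 and squares for replicate 2, and a line joining the libraries of a pair. The lines are long for BNIP3, BNIP3L and DDIT4 and short for FUNDC1, SQSTM1, MAP1LC3B and BECN1, while DDIT4 and MAP1LC3B differ most between replicate numbers.

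BNIP3 binds LC3-family proteins on the autophagosome through a short motif and needs no ubiquitin to do so. It was at 728 CPM (VEC) against 157 CPM (VHL) in pair 1, from 16855 and 2935 counts, and at 562 against 162 CPM in pair 2, from 25646 and 6618 counts. Both VHL libraries lay below both VEC libraries. VEC was 4.63 times VHL in pair 1 and 3.47 times in pair 2. The log2 change was -2.21 (95% counting interval -2.27 to -2.15) in pair 1 and -1.79 (-1.83 to -1.76) in pair 2. These intervals are exact binomial ones on the library counts, cover counting error only, and treat reads as independent molecules. The blocked fit gave -2.00 ± 0.26 (SE, n = 2 per group, edgeR adjusted p = 1.70e-11), which ranked 40 by p among all tested genes, and 0.455% of tested genes had a lower value. The group-only fit gave -2.01 ± 0.44 (edgeR unadjusted p = 0.0138, adjusted p = 0.999991).

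BNIP3L, the receptor best known for clearing mitochondria from maturing red cells, followed with a smaller difference. It was at 611 CPM (VEC) against 200.5 CPM (VHL) in pair 1, and at 379 against 196 CPM in pair 2. The VHL libraries were nearly level with each other and below both VEC libraries. The log2 change was -1.61 (-1.66 to -1.55) in pair 1 and -0.96 (-0.99 to -0.92) in pair 2, so its size differed between pairs by more than counting error. The blocked fit gave -1.28 ± 0.25 (edgeR adjusted p = 6.64e-05), and the group-only fit gave -1.32 ± 0.48 (edgeR unadjusted p = 0.0603, adjusted p = 0.999991). The log2 change of BNIP3 minus that of BNIP3L was -0.60 in pair 1 and -0.84 in pair 2, so BNIP3 fell more in both. Of the 9 tested genes, BNIP3 and BNIP3L were the 2 with both VHL libraries below both VEC libraries, which 3.39% of all tested genes had. DEPTOR, which was not tested, had this order too, on 4 to 17 counts per library. None of the 10 had both VHL libraries above both VEC libraries, which 4.47% of tested genes did.

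DDIT4, a stress-induced brake on mTORC1, was at 209 CPM (VEC) against 75.2 CPM (VHL) in pair 1, and at 32.8 against 10.7 CPM in pair 2. The groups overlapped, because VHL of replicate 1 lay above VEC of replicate 2. Within pairs the fall was alike, with log2 changes of -1.47 (-1.56 to -1.39) and -1.61 (-1.77 to -1.46). The blocked fit gave -1.54 ± 0.22 (edgeR adjusted p = 1.37e-09). Its replicates differed by 2.67 (VEC) and 2.81 (VHL) log2 units, more than VHL differed from VEC, and the group-only fit gave -1.49 ± 1.47. The call for DDIT4 thus rests on the pairing by replicate number. The calls for BNIP3 and BNIP3L rest on it too, since the group-only fit called neither.

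Sequence around an annotated start is shown for BNIP3 and DDIT4, which fell together, and for MAP1LC3B and BECN1, which were not called. HIF binds DNA at a short core, written here as ACGTG or GCGTG. The windows run from 250 bases before to 50 bases from the annotated start, come from RefSeq on GRCh38.p14, and are printed 5′ to 3′ along the gene, with matches to the core on either strand in capitals (CACGT and CACGC are the same letters on the other strand). They were matched by symbol and carry coordinates of another build than the hg19 alignments of the counts.
BNIP3, chr10:131981874-131982173, minus strand: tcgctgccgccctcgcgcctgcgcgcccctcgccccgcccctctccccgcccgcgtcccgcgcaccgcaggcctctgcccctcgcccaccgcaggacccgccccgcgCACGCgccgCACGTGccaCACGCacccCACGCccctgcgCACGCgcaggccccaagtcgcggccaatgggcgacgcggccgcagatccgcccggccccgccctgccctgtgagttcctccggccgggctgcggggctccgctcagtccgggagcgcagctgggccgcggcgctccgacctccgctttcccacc
DDIT4, chr10:72273674-72273973, plus strand: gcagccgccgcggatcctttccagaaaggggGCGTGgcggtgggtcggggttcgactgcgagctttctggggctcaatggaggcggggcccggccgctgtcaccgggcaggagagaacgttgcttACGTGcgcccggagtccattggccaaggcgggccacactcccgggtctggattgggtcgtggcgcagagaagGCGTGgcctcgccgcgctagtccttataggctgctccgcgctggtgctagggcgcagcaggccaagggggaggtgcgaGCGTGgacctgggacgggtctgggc
MAP1LC3B, chr16:87392086-87392385, plus strand: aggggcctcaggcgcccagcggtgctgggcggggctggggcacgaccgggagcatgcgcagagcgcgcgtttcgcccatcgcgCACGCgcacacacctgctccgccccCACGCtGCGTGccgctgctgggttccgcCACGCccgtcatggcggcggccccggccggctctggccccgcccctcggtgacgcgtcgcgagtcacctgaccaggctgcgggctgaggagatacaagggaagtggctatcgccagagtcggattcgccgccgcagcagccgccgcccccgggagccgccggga
BECN1, chr17:42823830-42824129, minus strand: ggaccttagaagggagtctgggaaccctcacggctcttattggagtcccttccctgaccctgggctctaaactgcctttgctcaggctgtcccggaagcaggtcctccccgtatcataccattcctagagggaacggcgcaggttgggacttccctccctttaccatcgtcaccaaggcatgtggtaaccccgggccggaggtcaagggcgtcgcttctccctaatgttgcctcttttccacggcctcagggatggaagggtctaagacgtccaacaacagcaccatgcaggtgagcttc

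The BNIP3 window held 6 matches, 1 on the gene's strand and 5 on the other, with first bases from position -143 to -104, counted from the start. The matches at -134 and -133 overlap in the letters CACGTG. DDIT4 held 4, all on its own strand, at -219, -125, -53 and 26 bases from the start. MAP1LC3B also held 4, at -167, -142, -136 and -114, and the printed BECN1 window held 0. Any other start of BECN1 was not scanned, and whether the printed window holds the main promoter of the gene was not tested. Its 0 therefore gives no contrast to BNIP3 or DDIT4. Of the 35116 windows of 300 bases in the table, 48.4% held at least 1 match, 4.40% at least 4 and 0.923% at least 6. Across the 7 genes with a window, 4 held a match in at least 1 of their windows, the fourth being SESN1 (1 match in 1 of its 3 windows). FUNDC1 and all 3 windows of SQSTM1 held 0. A match is a string of letters and not a bound site, and MAP1LC3B had as many as DDIT4 without a call.

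**Figure D2:**
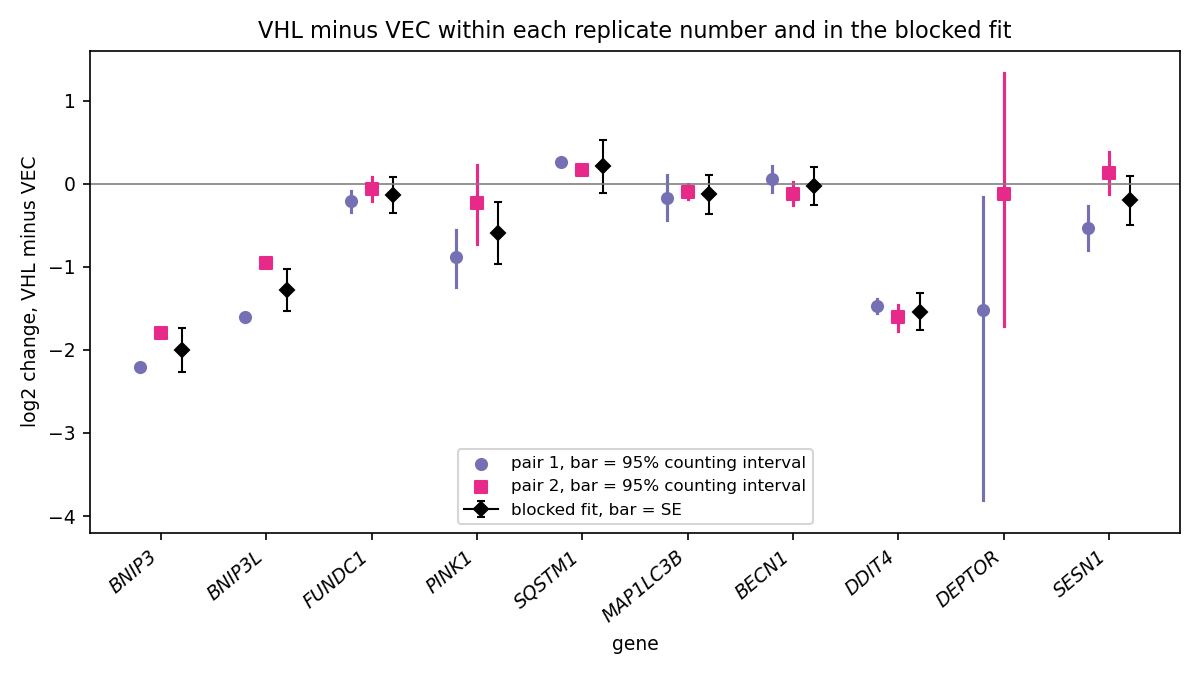
Log2 change (VHL minus VEC) of each gene in pair 1 (circles) and pair 2 (squares) with 95% counting intervals, and in the blocked fit (diamonds) with its SE. BNIP3, BNIP3L and DDIT4 lie between -0.96 and -2.21 in both pairs, and the intervals of DEPTOR, which was not tested, are the widest.

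The 3 general autophagy genes among the 10 stayed close to 0. SQSTM1 encodes p62, the receptor that carries ubiquitin-tagged cargo, and was at 2638 CPM (VEC) against 3154 CPM (VHL) in pair 1, and at 1281 against 1430 CPM in pair 2. Its VHL library was slightly the higher in both pairs, with log2 changes of 0.26 and 0.16 (blocked fit 0.21 ± 0.32, edgeR adjusted p = 0.937). MAP1LC3B encodes LC3B, the protein that coats the autophagosome membrane, and was at 11.6 CPM (VEC) against 10.3 CPM (VHL) in pair 1, and at 47.4 against 44.4 CPM in pair 2. Its levels were about alike in VEC and VHL and far apart between replicate numbers, with log2 changes of -0.17 and -0.10 (blocked fit -0.13 ± 0.23, edgeR adjusted p = 0.953). BECN1 encodes Beclin 1, part of the lipid kinase complex that starts the autophagosome, and was at 32.7 CPM (VEC) against 34.1 CPM (VHL) in pair 1, and at 19.9 against 18.3 CPM in pair 2. Its changes of 0.06 and -0.12 had opposite signs (blocked fit -0.03 ± 0.23, edgeR adjusted p = 0.994).

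The sets were compared within pairs, as the mean log2 change of BNIP3, BNIP3L and DDIT4 minus that of SQSTM1, MAP1LC3B and BECN1. In pair 1 the means were -1.76 and 0.05, a difference of -1.81. In pair 2 they were -1.45 and -0.02, a difference of -1.43. The smallest fall of the first set (BNIP3L in pair 2, -0.96) was below the lowest value of the second set (MAP1LC3B in pair 1, -0.17), so the sets did not overlap in either pair. The mean of both pairs was -1.62. Library scaling cancels in this difference. No p is given, because the genes were chosen with results known and there are 2 pairs. The difference holds for these 3 general autophagy genes alone. GABARAPL1, from a wider core autophagy list described below, changed by -0.94 and -0.87. Of the 31 tested genes of that list, 12 were lower in VHL in both pairs and 4 were higher in both.

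The other mitophagy genes among the 10 did not follow BNIP3. FUNDC1, another receptor of the outer membrane that works in low oxygen, was at 58.7 CPM (VEC) against 50.6 CPM (VHL) in pair 1, and at 19.9 against 19.0 CPM in pair 2. Its log2 changes of -0.21 and -0.06 (blocked fit -0.14 ± 0.22, edgeR adjusted p = 0.940) were far from those of BNIP3, and the change of BNIP3 minus that of FUNDC1 was -2.00 in pair 1 and -1.73 in pair 2. PINK1, the kinase that marks damaged mitochondria for removal, was at 10.1 CPM (VEC) against 5.41 CPM (VHL) in pair 1, and at 1.97 against 1.66 CPM in pair 2. The change was -0.89 (-1.25 to -0.55) in pair 1 and -0.24 (-0.72 to 0.23) in pair 2, where the interval includes 0, and the blocked fit gave -0.59 ± 0.37 (edgeR adjusted p = 0.590). PINK1 shares its locus with PINK1-AS, which held 31.7% (26.8 to 36.9, 95% Clopper-Pearson) of the counts of both in VEC of replicate 1 and 46.0% (38.7 to 53.4) in VHL of replicate 1. In replicate 2 it held 88.1% (85.6 to 90.4) in VEC and 89.6% (87.1 to 91.9) in VHL. Whether counting used strand is not given in the sources used here, so PINK1 is uncertain. The log2 change of PINK1-AS was -0.02 in each pair.

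SESN1 and DEPTOR, the remaining restraints on mTORC1, were not called. SESN1 encodes Sestrin 1, a p53 target that holds back mTORC1 through the GATOR complexes, and was at 14.4 CPM (VEC) against 9.97 CPM (VHL) in pair 1, and at 5.85 against 6.39 CPM in pair 2. Its changes of -0.53 (-0.80 to -0.27) and 0.13 (-0.13 to 0.38) had opposite signs, and the blocked fit gave -0.20 ± 0.30 (edgeR adjusted p = 0.934). DEPTOR, which binds and inhibits mTOR itself, had 17 (VEC) against 4 (VHL) counts in pair 1 and 10 against 8 in pair 2. These few counts put it below the filter. The counting interval of its log2 change ran from -3.81 to -0.16 in pair 1 and from -1.71 to 1.33 in pair 2, so a difference was not detectable at this depth in pair 2.

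Replicates differed more than groups for most of the genes. For 7 of the 10, the mean absolute log2 difference between replicates of a group exceeded the mean absolute difference between VHL and VEC. The exceptions were BNIP3 (0.21 against 2.00), BNIP3L (0.36 against 1.28) and DEPTOR (0.80 against 0.83), which had few counts. MAP1LC3B was the one gene of the 10 that was higher in replicate 2 of both groups, with log2 differences (replicate 1 minus replicate 2) of -2.02 for VEC and -2.09 for VHL.

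BNIP3 has many pseudogene copies of like sequence, and the tables list 39 symbols named as BNIP3 pseudogenes. BNIP3P1 held 8.51% (8.12 to 8.92, 95% Clopper-Pearson) of the counts of BNIP3 and these symbols in VEC of replicate 1 and 44.2% (43.7 to 44.6) in VEC of replicate 2, with 8.19% and 41.4% in the matched VHL libraries. All copies together held 9.91% (VEC) and 16.5% (VHL) in replicate 1 and 51.9% and 57.4% in replicate 2, so their share was higher in VHL of both pairs and differed far more between replicate numbers. BNIP3P1 went from 68.8 to 15.4 CPM in pair 1 and from 517 to 158 CPM in pair 2, with log2 changes of -2.15 and -1.71, near those of BNIP3 itself (blocked fit -1.92 ± 0.24, edgeR adjusted p = 1.83e-12). BNIP3P3 was at 0 counts in replicate 1 of each group and went from 1476 to 149 in pair 2, so its call has no support from pair 1. Of the 16 copies that were tested, these were the 2 called, both lower. With all copies added to BNIP3, the log2 changes were -2.10 and -1.62 and the blocked fit gave -1.86 ± 0.28 (edgeR adjusted p = 8.34e-09). How reads that map to several places were counted is not given in the sources used here, so the level of BNIP3 is uncertain, while the fall is present with the copies counted or left out. For MAP1LC3B, the symbol MAP1LC3B2 held 0.738% and 1.53% of the counts of both in replicate 1 (VEC and VHL) and 19.4% and 19.7% in replicate 2. Whether these reads came from MAP1LC3B2 itself was not tested. With MAP1LC3B2 added the log2 changes of MAP1LC3B were -0.15 and -0.09.

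**Figure D3:**
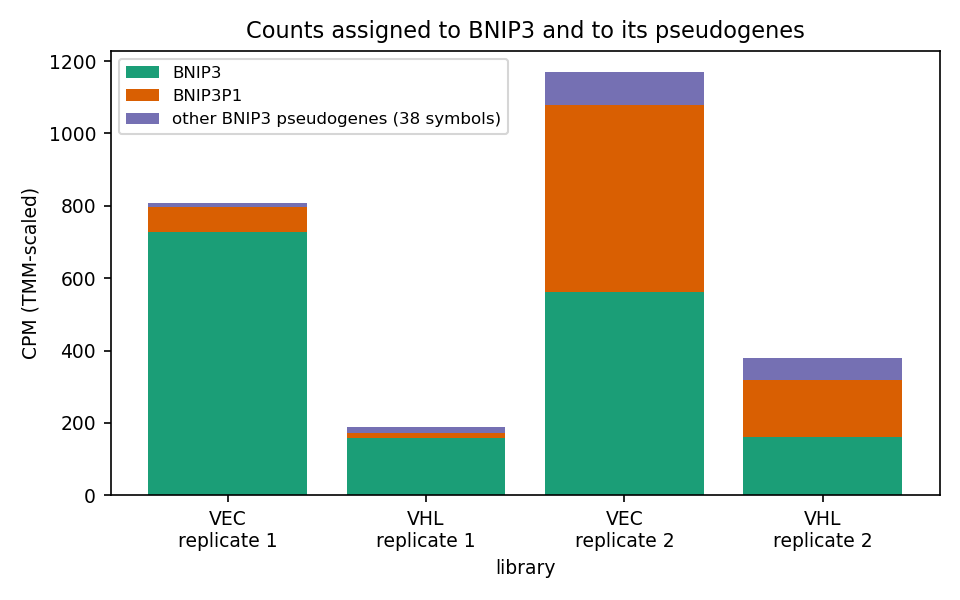
Stacked CPM (linear axis from 0) assigned to BNIP3, to BNIP3P1 and to the other 38 BNIP3 pseudogene symbols in each library. The BNIP3P1 part is small in replicate 1 and nearly as large as BNIP3 in replicate 2, and every total is lower in VHL than in VEC of the same pair.

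Across a wider list of 25 mitophagy genes, 4 were called in the blocked fit, 3 lower (BNIP3, BNIP3L and FKBP8) and 1 higher (PPTC7), and 21 were not. The share called was 16%, against 3.10% of all tested genes, and it includes BNIP3 and BNIP3L, which were chosen with results known. All tested genes include pseudogene symbols. In the fit of protein-coding genes alone 4 of the 25 were called, against 7.10% of 13692 genes. The list's median log2 change was -0.14, against -0.03 over all tested genes. PPTC7, a mitochondrial phosphatase that holds down the BNIP3 and BNIP3L proteins, was at 9.20 CPM (VEC) against 16.6 CPM (VHL) in pair 1, and at 46.6 against 87.8 CPM in pair 2. It was higher in VHL in both pairs, by 0.84 and 0.91 on the log2 scale (blocked fit 0.88 ± 0.22, edgeR adjusted p = 0.00464). FKBP8, another LC3-binding receptor of the outer membrane, was at 53.0 CPM (VEC) against 37.2 CPM (VHL) in pair 1, and at 17.8 against 8.76 CPM in pair 2. Its changes were -0.51 and -1.02 (blocked fit -0.76 ± 0.23, edgeR adjusted p = 0.0334), and its call was lost with no filter on low counts (edgeR adjusted p = 0.0568) and in DESeq2's blocked Wald test (adjusted p = 0.0912). Over the 5 blocked alternatives its adjusted p ran from 0.00810 to 0.0912. The ubiquitin-binding adaptors OPTN and CALCOCO2 had log2 changes of -0.46 and 0.09 in the blocked fit and were not called (edgeR adjusted p = 0.307 and 0.970).

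Of 32 core autophagy genes 31 were tested, and 1 was called, GABARAPL1, with a median log2 change of -0.07 over the list. GABARAPL1, a relative of LC3 on the autophagosome membrane, was at 50.9 CPM (VEC) against 26.5 CPM (VHL) in pair 1, and at 21.6 against 11.8 CPM in pair 2. It was lower in VHL in both pairs, with log2 changes of -0.94 and -0.87 (blocked fit -0.91 ± 0.23, edgeR adjusted p = 0.00531). Its relatives GABARAP and GABARAPL2 had blocked changes of -0.45 and 0.42 and were not called (edgeR adjusted p = 0.330 and 0.420). The share called in this list, 3.23%, was near the 3.10% of all genes. At an unadjusted p under 0.05 the blocked edgeR fit had 6 of the 31, against 3050 of all 24417 tested genes. These 6 (GABARAPL1, ATG4D, ATG101, ATG9A, WIPI2 and GABARAP) were lower in VHL in both pairs. In the fit of protein-coding genes alone 3 of the 31 were called, against 7.10% of 13692 genes.

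Among 19 genes that restrain mTORC1, 17 were tested and DDIT4 was the 1 called, with a median of -0.09 over the list. The share called was 5.88%, against 3.10% of all tested genes, and DDIT4 was chosen with results known. In the fit of protein-coding genes alone 2 of the 17 were called, against 7.10% of 13692 genes. DDIT4L, the close relative of DDIT4, had changes of -1.57 and -0.99 on 28 to 106 counts per library and was not called (blocked fit -1.31 ± 0.47, edgeR adjusted p = 0.116). SESN2 and SESN3, relatives of SESN1, had blocked changes of -0.02 and 0.33 (edgeR adjusted p = 0.997 and 0.869). None of the 14 tested genes of the mTORC1 core (MTOR, RPTOR, the Rag GTPases, the LAMTOR complex and others) and none of the 16 lysosome and TFEB genes was called in the blocked edgeR fit. At an unadjusted p under 0.05 that fit had 1 and 3 of them, against 3050 of all 24417 tested genes. The blocked DESeq2 test called 1 and 4, against 8.59% of all genes that got an adjusted p. The mTORC1 core and the lysosome and TFEB lists had median log2 changes of -0.16 and -0.28. As reference, the HIF target CA9 had a blocked change of -5.45, and EGLN3, NDRG1, SLC2A1 and VEGFA lay between -1.95 and -0.99. BNIP3L and DDIT4 fell by amounts between those of EGLN3 and VEGFA. BNIP3, at -2.00, fell slightly more than EGLN3 and far less than CA9.

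**Figure D4:**
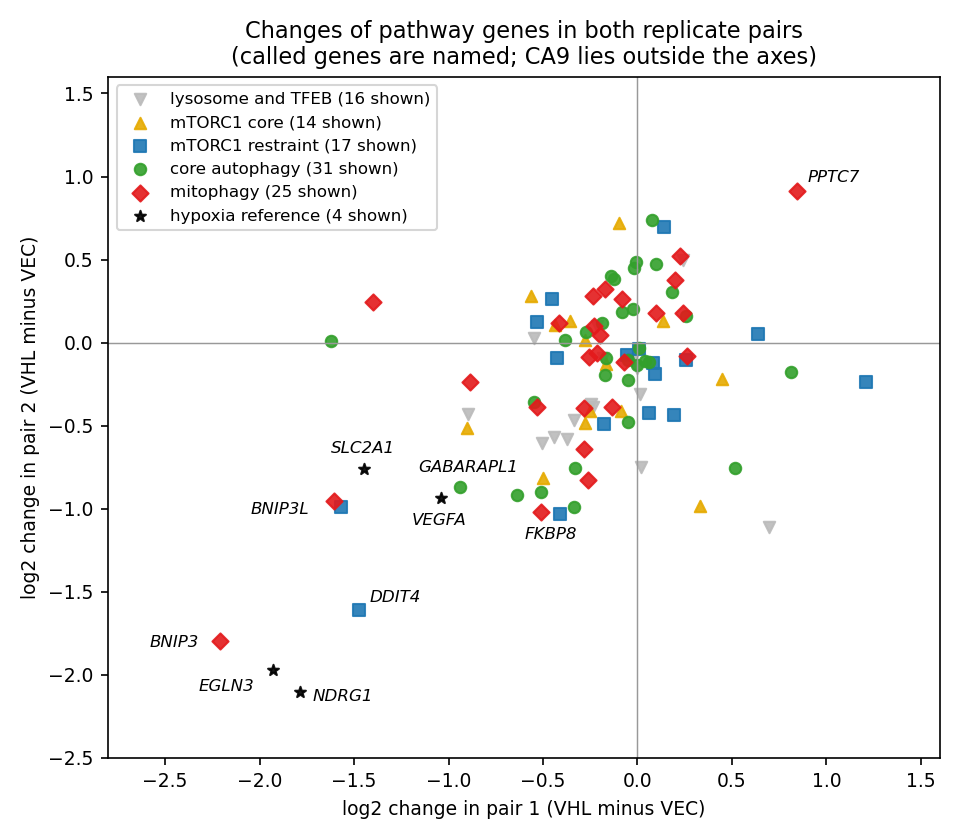
Log2 change (VHL minus VEC) in pair 1 (horizontal) and pair 2 (vertical) of the tested genes of 5 pathway lists and of 4 HIF targets, with called genes named (CA9 lies outside the axes). BNIP3, BNIP3L and DDIT4 lie beside the HIF targets at the lower left, PPTC7 stands at the upper right, and most other genes lie near 0.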

How the data were processed

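RNA was measured in 4 UM-RC-2 libraries, placed in their groups and given replicate numbers by their titles. The authors' deposited values are raw counts per gene symbol from sorted hg19 alignments per the file headers, and featureCounts is named in the submitters' processing notes. The aligner, annotation, strand setting and treatment of multi-mapped reads are not given in the sources used here. H3K27ac tables were not used, since their regions carry neither positions nor gene names. The analysis used edgeR 4.0.16 under R 4.3.3 (filterByExpr, TMM, glmQLFit, glmQLFTest, two-sided, Benjamini-Hochberg over all 24417 tested genes, threshold 0.05). The replicate number was a block, since VHL was to be compared with VEC within each number. It left 1 residual degree of freedom. The pairing comes from the titles and the data, not from a stated batch. Alignments of replicate 2 carry another form of name per the file headers. Deviations from group means correlated at 0.982 across genes between VEC and VHL of the same number. With 2 libraries per group this value is the same for both numbers by construction. The SE was obtained from the log2 change and the root of F. A prior count of 2 entered the pair changes. Alternatives were DESeq2 1.42.0, no block, DESeq2 size factors, other filters, protein-coding genes alone and leaving out libraries. The fits were also run on simulated counts with the same spread set for every gene, which checks the code and not the calls made here. Named besides the 10 genes are called genes of the pathway lists with 1 direction in both pairs, up to the 6 of smallest p per list; others were named after their values were seen. Genes, lists and the choice of the block were made with earlier results of these data known.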

Additional observations from a re-analysis of the deposited data

How the results depend on the processing

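Without the replicate block edgeR called 0 genes overall (22 at an unadjusted p under 0.05), and 0 of the 10 genes, of the mitophagy list, of the core autophagy list and of the mTORC1 restraint list. DESeq2's Wald test without the block, added after the data were seen, called 6 genes and 0 of the 10. At an unadjusted p under 0.05 that test had 2 of the 10, against 101 of 24417 genes. The block cannot be fitted on 3 libraries. With each library left out and group as the only term, where the lone library is assumed to vary like the other group, 0 genes were called for each of these counts (1 to 11 genes at an unadjusted p under 0.05). In those fits, which set libraries of different replicate numbers against each other, BNIP3 stayed between -2.15 and -1.82 and BNIP3L between -1.59 and -0.94, but DDIT4 ran from -3.49 to 0.39, with 0.39 without VEC replicate 1. GABARAPL1 was at -0.18 without VEC replicate 1, -0.47 without VHL replicate 2, -1.37 without VEC replicate 2 and -1.61 without VHL replicate 1. Other signs turned there too. Without VEC replicate 1 FUNDC1 was at 0.81, PINK1 at 0.84, BECN1 at 0.40, SESN1 at 0.48 and FKBP8 at 0.37. Without VHL replicate 2 FUNDC1 was at 0.36, BECN1 at 0.35, FKBP8 at 0.064 and PPTC7 at -0.84. Without VHL replicate 1 SQSTM1 was at -0.45 and MAP1LC3B at 0.59, and without VEC replicate 2 they were at -0.17 and 1.28. The cause was not tested.

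With the block, BNIP3, BNIP3L and DDIT4 were called in all 5 other fits (3 of the 10 genes in each), and no other of the 10 was. The Wald test of DESeq2 called 1203 genes, 725 lower and 478 higher (405 shared with the 756 of the blocked edgeR fit), 2 core autophagy genes and 5 mitophagy genes. Protein-coding genes alone gave 3 core autophagy and 2 mTORC1 restraint genes, and called 7.10% of 13692 genes, 628 lower and 344 higher, against 573 lower and 183 higher of the 756. DESeq2 size factors gave 999. The difference of the sets was -1.65 without the block and between -1.81 and -1.43 with a library left out, which leaves 1 pair. Depth limits DEPTOR, and the 1 residual degree of freedom limits every blocked p.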
